A study of Mus musculus with 6 samples.

Results

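The 10 genes of the nuclear lamina and of its link to the cytoskeleton were examined in the RNA of primary mouse embryonic fibroblasts (pMEFs). They are the lamin genes Lmna, Lmnb1 and Lmnb2, the lamin B receptor gene Lbr, the lamina-associated polypeptide gene Tmpo, the SUN-domain genes Sun1 and Sun2 and the nesprin genes Syne1, Syne2 and Syne3. They were taken by symbol from the 17512 genes of the table, and all 10 were found. The RNA-seq covered 6 lines on a C57bl6 background, 3 with intact Hat1 (HAT1 WT, lines 36, 47 and 78) and 3 carrying a Hat1 knockout (HAT1 KO, lines 33, 41 and 72). HAT1 is the acetyltransferase that marks new histone H4 before it enters chromatin, and the comparison asked which transcripts depend on it. All lines were grown in DMEM with serum and antibiotics, and no further treatment was named. The study made pMEFs from mid-gestation embryos after the internal organs were taken out, so a culture can hold several cell types. The labels tie no line to an embryo or a litter, so p-values measure only the spread between these lines.

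The nuclear lamina is a meshwork of A-type and B-type lamin filaments under the inner nuclear membrane. LBR, a membrane protein, binds B-type lamins and heterochromatin protein HP1, and thereby holds silent chromatin at the nuclear edge. The TMPO proteins, also called LAP2, bind lamins, and most isoforms span the inner membrane. SUN proteins cross the inner membrane and join nesprins of the outer membrane to form the LINC complex, which couples the lamina to actin, microtubules and intermediate filaments. In fibroblasts A-type lamins give the nucleus stiffness, and the LINC complex moves and positions it.

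Promoters of 4 of these genes are printed, Lbr, Tmpo, Lmnb2 and, as the most abundant member, Lmna. All 10 genes are set below against proliferation genes, and Lbr, Tmpo and Lmnb2 are 3 of the 4 with the highest correlation there. The printed promoters are therefore no neutral sample of the 10. The Tmpo window was picked, with the matches known, because it holds CHR and E2F letters. Each is a RefSeq window on GRCm38.p6, on the strand of the gene, from 250 bases before an annotated start to 50 bases after it. They are Lbr at chr1:181842352-181842651 (minus strand), 1 of 2 Tmpo windows at chr10:91170501-91170800 (minus strand), 1 of 2 Lmnb2 windows at chr10:80918196-80918495 (minus strand) and 1 of 2 Lmna windows at chr3:88493263-88493562 (minus strand). Capitals mark matches, on either strand, to TTTGAA (the core of the cell cycle homology region, CHR), GGCGGGAA (an E2F motif), CCAAT (the CCAAT box) and GGGCGG (the GC box).
Lbr: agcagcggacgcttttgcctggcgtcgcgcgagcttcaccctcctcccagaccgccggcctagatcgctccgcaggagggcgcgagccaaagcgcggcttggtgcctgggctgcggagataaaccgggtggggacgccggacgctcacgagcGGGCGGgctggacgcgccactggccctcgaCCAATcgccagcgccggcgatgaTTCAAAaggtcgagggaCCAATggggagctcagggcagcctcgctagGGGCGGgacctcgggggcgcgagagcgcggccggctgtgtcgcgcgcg
Tmpo: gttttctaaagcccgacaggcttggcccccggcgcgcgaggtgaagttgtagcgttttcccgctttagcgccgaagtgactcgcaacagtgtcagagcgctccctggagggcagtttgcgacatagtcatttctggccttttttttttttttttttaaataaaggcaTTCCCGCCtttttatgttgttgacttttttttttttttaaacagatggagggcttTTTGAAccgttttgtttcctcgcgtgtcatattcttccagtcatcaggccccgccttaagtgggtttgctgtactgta
Lmnb2: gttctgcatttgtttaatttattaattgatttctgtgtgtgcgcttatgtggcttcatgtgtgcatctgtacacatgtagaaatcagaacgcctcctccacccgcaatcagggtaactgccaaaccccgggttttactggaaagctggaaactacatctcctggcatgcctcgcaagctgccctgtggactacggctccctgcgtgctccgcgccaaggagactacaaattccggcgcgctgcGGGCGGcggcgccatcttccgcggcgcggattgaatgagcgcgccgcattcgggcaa
Lmna: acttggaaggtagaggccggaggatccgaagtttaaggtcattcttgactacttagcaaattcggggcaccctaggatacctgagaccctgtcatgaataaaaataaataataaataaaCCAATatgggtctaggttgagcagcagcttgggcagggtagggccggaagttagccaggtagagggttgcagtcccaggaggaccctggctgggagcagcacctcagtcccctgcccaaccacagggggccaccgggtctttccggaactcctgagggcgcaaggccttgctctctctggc
In the Lbr window a CHR match starts 45 bases before the annotated start, between CCAAT boxes that start 68 and 28 bases before it. The Sun2 window, not printed, also pairs them, with a CHR match 95 bases and CCAAT boxes 85 and 41 bases before its start. Against the proliferation genes below, Sun2 had a Pearson's r of -0.50. In the Tmpo window an E2F match starts 83 bases and a CHR match 28 bases before the start, and the other Tmpo window holds neither. Neither Lmnb2 window holds a CHR, E2F or CCAAT match, and the printed one has a GC box that starts 7 bases before the start. The printed Lmna window holds a CCAAT box, 131 bases before its start, and no CHR, E2F or GC box match. It lies inside the gene, downstream of the other window at chr3:88503303-88503602, and which start the Lmna counts come from was not tested. The other Lmna window holds a GC box that starts 52 bases before its own start, and no CHR, E2F or CCAAT match. Windows of 9 of the 10 genes were used, 15 windows in all, and the promoter of Lmnb1 was left out. The CHR letters were in 3 of the 15 (20.0%), belonging to Lbr, Sun2 and Tmpo, against 17.9% of all promoter windows. E2F letters were in 1 of 15 (6.67%, against 2.19%), the CCAAT box in 6 (40.0%, against 37.4%) and the GC box in 8 (53.3%, against 35.7%). Matches of different motifs could overlap, and a match is a description of letters and not a bound site.

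Levels were set side by side per length, as CPM (a gene's count relative to the total of its library, after edgeR's TMM scaling) per kilobase of merged exons in GENCODE M21. Lmna was the most abundant of the 10 in HAT1 WT, at 139 ± 8.75 CPM per kb (SD, n = 3), followed by Sun2 at 26.2 ± 1.90. Lmnb1 (11.7 ± 2.60), Syne3 (10.9 ± 1.74) and Sun1 (9.46 ± 0.799) formed the next group, in which each neighbour overlapped the next. Lbr (7.32 ± 1.07), Tmpo (5.74 ± 1.25) and Lmnb2 (4.74 ± 0.524) came below, again with overlap between neighbours. The giant nesprins were lowest per length, Syne2 at 1.03 ± 0.190 and Syne1 at 0.865 ± 0.222, and they overlapped. The ranges of the 3 WT lines did not overlap from Lmna to Sun2, Sun2 to Lmnb1, Sun1 to Lbr and Lmnb2 to Syne2. Between Sun1 and Lbr the margin was narrow, with 8.83 in the lowest Sun1 line and 8.55 in the highest Lbr line. In HAT1 KO the order was the same except that Lbr (10.6 ± 1.24) stood above Sun1 (9.65 ± 0.335). Per-length values of Syne1 and Syne2 rest on 40.5 kb and 26.7 kb of exons merged over all isoforms, and short isoforms would lower them.

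**Figure D1:**
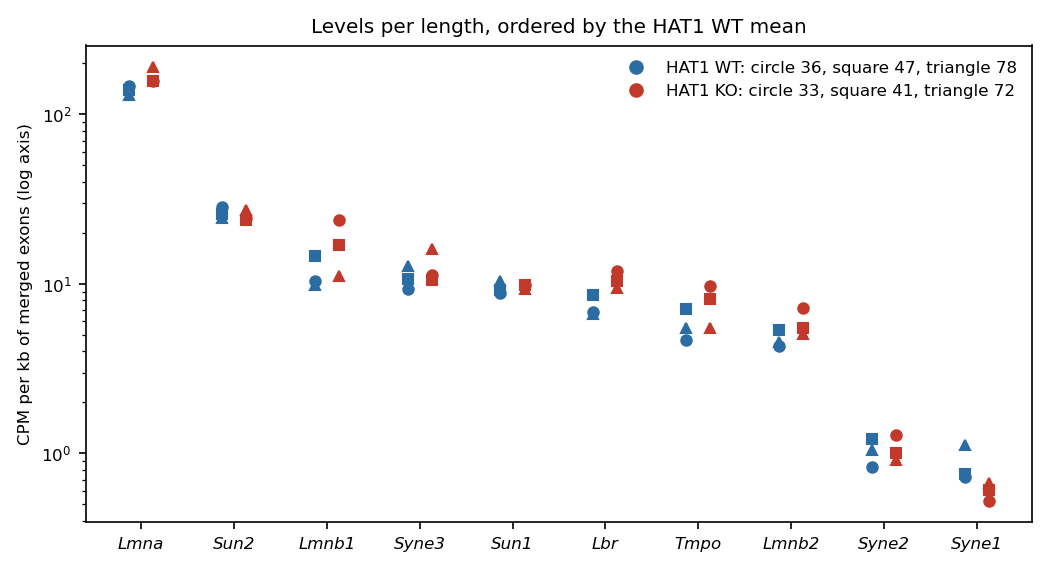
CPM per kilobase of merged exons (log axis) for the 10 genes, ordered by the HAT1 WT mean. Each point is 1 of 6 lines (blue HAT1 WT, red HAT1 KO), and Lmna stands at 139 CPM per kb in HAT1 WT against 0.865 for Syne1.

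Libraries held 67720628 to 98786746 counts. The 10 genes together took 0.126% to 0.135% of them in HAT1 WT and 0.144% to 0.163% in HAT1 KO. Lmna gave most of the counts of the 10, 64766 of 99175 in WT 36 and 85501 of 125507 in KO 72. This share therefore mainly follows Lmna, and no such share was computed for other gene sets. Each of the 10 genes had at least 1398 counts in every library. Counting error was therefore at most 2.67% if each count is an independent fragment, and the spread between lines set the precision. Hat1 itself was at 17.4, 23.0 and 20.1 CPM in WT lines 36, 47 and 78 and at 10.2, 10.0 and 10.3 CPM in KO lines 33, 41 and 72 (edgeR log2 fold change -0.99 ± 0.12 SE, adjusted p = 0.0376), and a table per gene does not show which exons its remaining counts come from. Sequencing lanes were 6 for WT 47, KO 33 and KO 72, 7 for WT 78 and KO 41, and 8 for WT 36. The Y-linked Uty, Ddx3y, Eif2s3y and Kdm5d together had 13788 and 12841 counts in WT lines 36 and 47, 231 in WT 78 and 4 to 8 in the KO lines, while the Xist count was 94 in WT 36, 1179 in WT 47, 29520 in WT 78 and from 11233 to 13722 in HAT1 KO. Genotype and this difference cannot be told apart except through WT 78. The fibroblast markers (Col1a1, Col1a2, Col3a1, Pdgfra, Pdgfrb, Thy1, Vim and Dcn, all 8 present) summed to 60775 to 68615 CPM in HAT1 WT and 46258 to 78264 CPM in HAT1 KO, with the lowest sum in KO 72. Of these, Thy1 alone had an unadjusted p under 0.05 in edgeR (log2 fold change -0.31, adjusted p = 0.305). That is 1 of 8 lower, against 8.77% of all tested genes.

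None of the 10 genes passed an adjusted p of 0.05 between the genotypes in edgeR's quasi-likelihood test, a threshold that 0.528% of the 14773 tested genes passed. Adjusted p-values of the 10 lay between 0.174 and 0.926. At an unadjusted p under 0.05, Lbr and Lmna were higher in HAT1 KO (2 of 10, against 5.88% of all genes) and Syne1 was lower (1 of 10, against 8.77%). The same 3 genes had no overlap between the lines, 2 higher (9.59% of all genes) and 1 lower (12.4% of all genes). The log2 fold change was positive for 8 genes and negative for Sun2 and Syne1, and its median was 0.24, against 0.0085 over all tested genes. Under the DESeq2 Wald test 1 gene, Lbr, passed (adjusted p = 0.0180), where 869 genes were called in place of 78. In bulk RNA, a different share of cells of a type and a different amount of RNA per cell cannot be told apart.

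**Figure D2:**
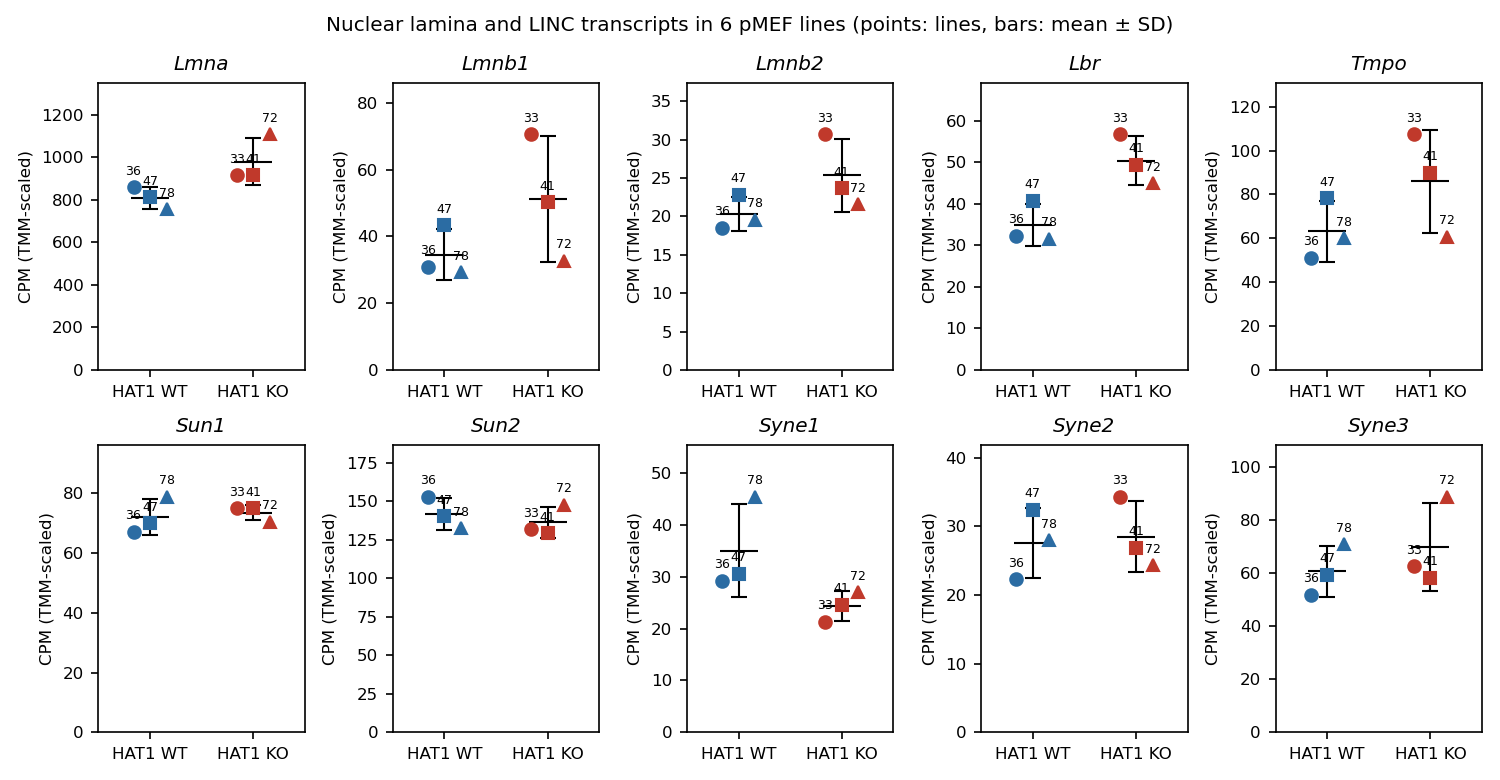
TMM-scaled CPM of each gene in the 3 HAT1 WT (blue) and 3 HAT1 KO (red) lines, with line numbers and mean ± SD (bars). The KO points of Lbr (45.0 to 56.7 CPM) and Lmna (915 to 1108 CPM) all lie above the WT points, and those of Syne1 (21.3 to 27.0 CPM) all lie below.

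Lbr lies on chromosome 1, positions 181815335 to 181843046 of GRCm38, minus strand. Besides tethering heterochromatin, its protein has sterol reductase activity. It was at 32.3, 40.7 and 31.6 CPM in WT lines 36, 47 and 78 and at 56.7, 49.4 and 45.0 CPM in KO lines 33, 41 and 72. The lowest KO line was above the highest WT line, WT 47, by a margin smaller than the range within either genotype. The KO mean was 144% of the WT mean, 50.4 ± 5.92 against 34.9 ± 5.07 CPM (SD, n = 3 each). The log2 fold change was 0.53 ± 0.13 (SE, 95% interval 0.21 to 0.85), with an unadjusted p of 0.00671 and an adjusted p of 0.174 in edgeR. By unadjusted p Lbr stood at rank 571 of the 14773 genes, first among the 10. With 3 lines against 3, the exact permutation test gave p = 0.1, the smallest it can give. KO was higher by 0.31 (log2) within lane 6 and by 0.65 within lane 7, each from 1 WT line. Of the merged Lbr exons, 10.7% overlap other annotated genes, mostly Dnah14 on the opposite strand, and strand use in counting was not stated.

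Lmna, on chromosome 3 from 88480147 to 88509956 (minus strand), encodes lamins A and C by alternative splicing, which counts per gene cannot separate. It was at 859, 812 and 757 CPM in WT lines 36, 47 and 78 and at 917, 915 and 1108 CPM in KO lines 33, 41 and 72. The KO lines all lay above the WT lines, and KO 72 lay far above the other KO lines. Its log2 fold change was 0.28 ± 0.11 (SE, 95% interval 0.018 to 0.54), with an unadjusted p of 0.0396 and an adjusted p of 0.317 in edgeR. It was 0.19 without KO 72, with an unadjusted p of 0.0508. The exact permutation p was again the smallest possible, 0.1, and KO was higher by 0.31 within lane 6 and by 0.27 within lane 7.

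The B-type lamins are present in nearly all cell types. Lmnb1, on chromosome 18 from 56707813 to 56753424 (plus strand), was at 30.9, 43.4 and 29.3 CPM in WT lines 36, 47 and 78 and at 70.5, 50.2 and 32.7 CPM in KO lines 33, 41 and 72. KO 72 lay below WT 47, so the genotypes overlapped, and the 2.41-fold range over the lines was the widest of the 10 genes. The log2 fold change was 0.57 ± 0.30 (SE, 95% interval -0.15 to 1.29, adjusted p = 0.441 in edgeR), numerically the largest of the 10 and with the widest error. Within lane 6 the log2 difference was 0.15 and within lane 7 it was 0.78.

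Lmnb2, on chromosome 10 from 80901203 to 80918245 (minus strand), was at 18.5, 22.8 and 19.6 CPM in WT lines 36, 47 and 78 and at 30.7, 23.7 and 21.6 CPM in KO lines 33, 41 and 72. Its genotypes overlapped as well, since KO 72 was below WT 47, and its log2 fold change was 0.32 ± 0.16 (SE, 95% interval -0.060 to 0.70, adjusted p = 0.416 in edgeR). Lmnb1 and Lmnb2 shared the order of the KO lines, with 33 highest and 72 lowest, whereas Lmna was highest in KO 72. Without KO 72 the log2 fold changes were 0.82 for Lmnb1 and 0.43 for Lmnb2.

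Tmpo, on chromosome 10 from 91147571 to 91181315 (minus strand), has 13 annotated transcripts, among them the nucleoplasmic LAP2 alpha, and the counts pool them. It was at 51.2, 78.1 and 60.0 CPM in WT lines 36, 47 and 78 and at 107, 89.8 and 60.8 CPM in KO lines 33, 41 and 72. The lines ran from low to high much as for the B-type lamins, with KO 72 among the WT lines. In edgeR its log2 fold change was 0.45 ± 0.24 (SE, 95% interval -0.14 to 1.03, adjusted p = 0.459), 0.66 without KO 72, 0.05 within lane 6 and 0.58 within lane 7.

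SUN proteins are the inner membrane side of the LINC bridge. Sun1, on chromosome 5 from 139200637 to 139249840 (plus strand), was at 67.1, 69.8 and 78.7 CPM in WT lines 36, 47 and 78 and at 74.8, 74.8 and 70.4 CPM in KO lines 33, 41 and 72. Sun2, on chromosome 15 from 79724070 to 79742536 (minus strand), was at 153, 140.5 and 133 CPM in the WT lines and at 132, 129 and 148 CPM in the KO lines, in the same order. In both genes the KO values lay within or next to the WT range. The log2 fold change was 0.03 ± 0.08 for Sun1 (SE, 95% interval -0.16 to 0.22, adjusted p = 0.891) and -0.06 ± 0.09 for Sun2 (95% interval -0.27 to 0.15, adjusted p = 0.801) in edgeR. Both intervals included 0 and reached no further than 0.27 from it.

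The nesprins are the LINC partners on the cytoskeletal side. Syne1 encodes nesprin 1, whose giant isoform binds actin, and lies on chromosome 10 from 5020917 to 5551482 (minus strand) in 147 merged exons. It was at 29.2, 30.5 and 45.4 CPM in WT lines 36, 47 and 78 and at 21.3, 24.6 and 27.0 CPM in KO lines 33, 41 and 72. Every KO line was below every WT line, and WT 78 stood well above the other WT lines. The log2 fold change was -0.53 ± 0.19 (SE, 95% interval -0.996 to -0.064), with an unadjusted p of 0.0317 and an adjusted p of 0.299 in edgeR. Without WT 78 it was -0.29, with an unadjusted p of 0.0541. Within lane 6 the log2 difference was -0.35, and within lane 7, where WT 78 was the WT line, it was -0.89. The exact permutation p was 0.1, the smallest possible.

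Syne2, the gene of nesprin 2 on chromosome 12 from 75818134 to 76110926 (plus strand), was at 22.3, 32.5 and 28.0 CPM in WT lines 36, 47 and 78 and at 34.3, 26.9 and 24.4 CPM in KO lines 33, 41 and 72. The genotypes overlapped throughout, with a log2 fold change of 0.05 ± 0.18 (SE, 95% interval -0.39 to 0.49, adjusted p = 0.926 in edgeR). Syne3 encodes nesprin 3, which binds plectin and so intermediate filaments, on chromosome 12 from 104929933 to 105009809 (minus strand). It was at 51.8, 59.4 and 71.0 CPM in WT lines 36, 47 and 78 and at 62.6, 58.2 and 88.8 CPM in KO lines 33, 41 and 72. Its highest values in each genotype were those of WT 78 and KO 72, and the log2 fold change was 0.20 ± 0.19 (SE, 95% interval -0.26 to 0.67, adjusted p = 0.675 in edgeR).

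**Figure D3:**
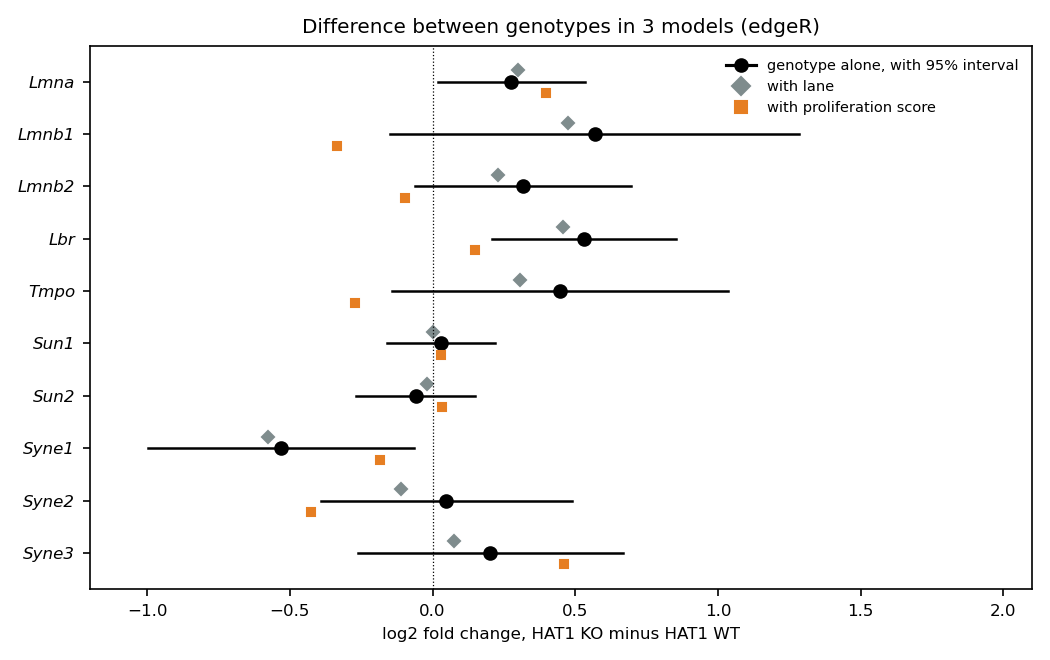
Log2 fold change of each gene, HAT1 KO minus HAT1 WT, from edgeR with genotype alone (black, 95% interval), with lane added (grey) and with the proliferation score added (orange). Black intervals exclude 0 for Lbr (0.21 to 0.85), Lmna (0.018 to 0.54) and Syne1 (-0.996 to -0.064), before adjustment, and the orange values of Lmnb1 (-0.33), Lmnb2 (-0.10) and Tmpo (-0.27) lie below 0.

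Ratios of 2 transcripts within a library do not depend on how libraries are scaled. Lbr counts were 3.76%, 5.01% and 4.18% of Lmna counts in WT lines 36, 47 and 78 and 6.18%, 5.40% and 4.06% in KO lines 33, 41 and 72. LBR and lamin A/C are the main tethers of peripheral heterochromatin, and their transcript ratio overlapped between genotypes, with a log2 difference of 0.26 (exact permutation p = 0.3). Lmnb1 counts were 3.60%, 5.34% and 3.87% of Lmna counts in HAT1 WT and 7.70%, 5.48% and 2.95% in HAT1 KO, with lines in the same order. KO 72 was the lowest and KO 33 the highest of all 6, and the log2 difference was 0.25 (exact permutation p = 0.6). For Lmnb1 to Lmnb2 the log2 difference was 0.21 (exact permutation p = 0.3), and for Sun1 to Sun2 it was 0.09 (exact permutation p = 0.7). Syne2 counts were 76.4%, 106% and 61.7% of Syne1 counts in HAT1 WT and 161%, 109% and 90.3% in HAT1 KO, a log2 difference of 0.56 (exact permutation p = 0.2). All 5 ratios overlapped, the smallest p after Benjamini-Hochberg adjustment over the 5 was 0.5, and 3 lines against 3 cannot give a p under 0.1. Within lane 6 the differences for Lbr to Lmna, Lmnb1 to Lmna and Lmnb1 to Lmnb2 were -0.0017, -0.16 and -0.024, and within lane 7 they were 0.37, 0.50 and 0.50.

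**Figure D4:**
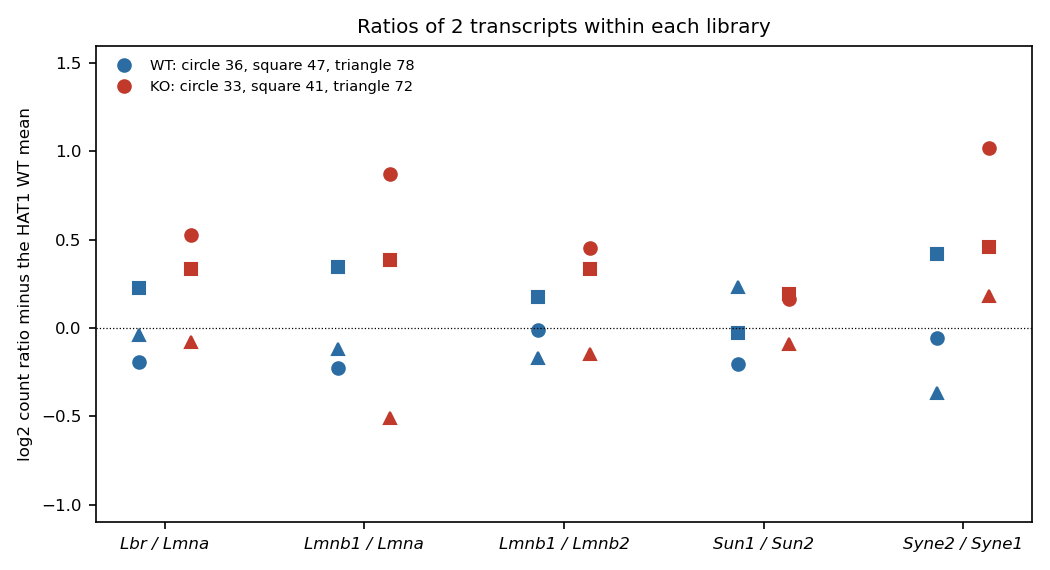
Log2 ratio of the counts of 2 transcripts in each library, less the mean of the 3 HAT1 WT lines, for 5 pairs. HAT1 WT (blue) and HAT1 KO (red) points overlap in every pair, and the largest mean difference is 0.56 for Syne2 to Syne1.

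The 10 transcripts were also set against the level of proliferation genes in each line. The proliferation score was the mean log2 CPM of Mki67, Top2a, Cdk1, Ccna2, Ccnb1, Bub1, Plk1, Aurkb, Pcna, Mcm2, Mcm5 and Rrm2. It was 5.16, 5.76 and 5.16 in WT lines 36, 47 and 78 and 6.29, 6.02 and 5.73 in KO lines 33, 41 and 72, so that KO 72 and WT 47 were nearly equal. The 12 genes all had positive log2 fold changes, 9 at an unadjusted p under 0.05 (against 5.88% of all genes) and 0 after adjustment. The 3 of smallest p were Rrm2 of nucleotide synthesis (0.96 ± 0.20 SE, adjusted p = 0.124), Mcm5 of the replicative helicase (0.65 ± 0.17, adjusted p = 0.186) and Top2a, a topoisomerase (0.74 ± 0.21, adjusted p = 0.206) in edgeR.

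Over the 6 lines, Pearson's r with the score was 0.99 for Lbr (exact permutation p = 0.00556, Spearman's rho 0.89, p = 0.0333), which 0.372% of all tested genes reached or exceeded. It was 0.94 for Lmnb2 (exact permutation p = 0.00139, rho 1, p = 0.00278), a value reached by 2.61% of genes. For Lmnb1 r was 0.92 (exact permutation p = 0.00278, rho 0.94, p = 0.0167), and for Tmpo it was 0.92 (exact permutation p = 0.0125, rho 1, p = 0.00278). The lines therefore ranked in the same order by the score as by Lmnb2 and Tmpo. In that order WT 36 and WT 78 were nearly tied, with scores of 5.1587 and 5.159, so each rho rests in part on their order. Syne1 ran the opposite way, with r = -0.82 (exact permutation p = 0.0306, rho -0.71, p = 0.136). Of the 10 relations computed, 4 were positive with a p under 0.05, against 7.18% of all tested genes, and 1 was negative, against 4.03%. The pairings behind these p-values ran across both genotypes, and every gene of the score had a positive log2 fold change. The p-values therefore cannot separate a relation to the score from the difference between genotypes. Adjusted over all tested genes, the smallest p of the 10 was 0.225, and no gene of the table had one under 0.05.

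The remaining transcripts had an r nearer to 0 over the 6 lines. Pearson's r was 0.45 for Lmna (exact permutation p = 0.403, rho 0.43, p = 0.419) and 0.62 for Syne2 (exact permutation p = 0.188, rho 0.71, p = 0.136). It was -0.50 for Sun2 (exact permutation p = 0.310, rho -0.77, p = 0.103), 0.18 for Sun1 (exact permutation p = 0.713, rho 0.37, p = 0.497) and 0.05 for Syne3 (exact permutation p = 0.946, rho 0.09, p = 0.919). Without WT lines 36 and 78, which lay farthest from the median score, r was 0.94 for Lbr, 0.94 for Lmnb2, 0.95 for Lmnb1, 0.92 for Tmpo and -0.93 for Syne1. It was -0.19 for Lmna, 0.90 for Sun1, -0.80 for Sun2, 0.55 for Syne2 and -0.46 for Syne3. The 3 lines of a genotype and the 2 or 3 of a lane were too few for a correlation of their own. With the score in the edgeR model, the log2 fold change was 0.15 for Lbr (unadjusted p = 0.154) and -0.18 for Syne1 (unadjusted p = 0.537). It was -0.33 for Lmnb1 (unadjusted p = 0.205), -0.10 for Lmnb2 (unadjusted p = 0.558) and -0.27 for Tmpo (unadjusted p = 0.208), whereas it was 0.40 for Lmna (unadjusted p = 0.0662). All 12 genes of the score had positive log2 fold changes, so this model can separate score and genotype only in part.

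**Figure D5:**
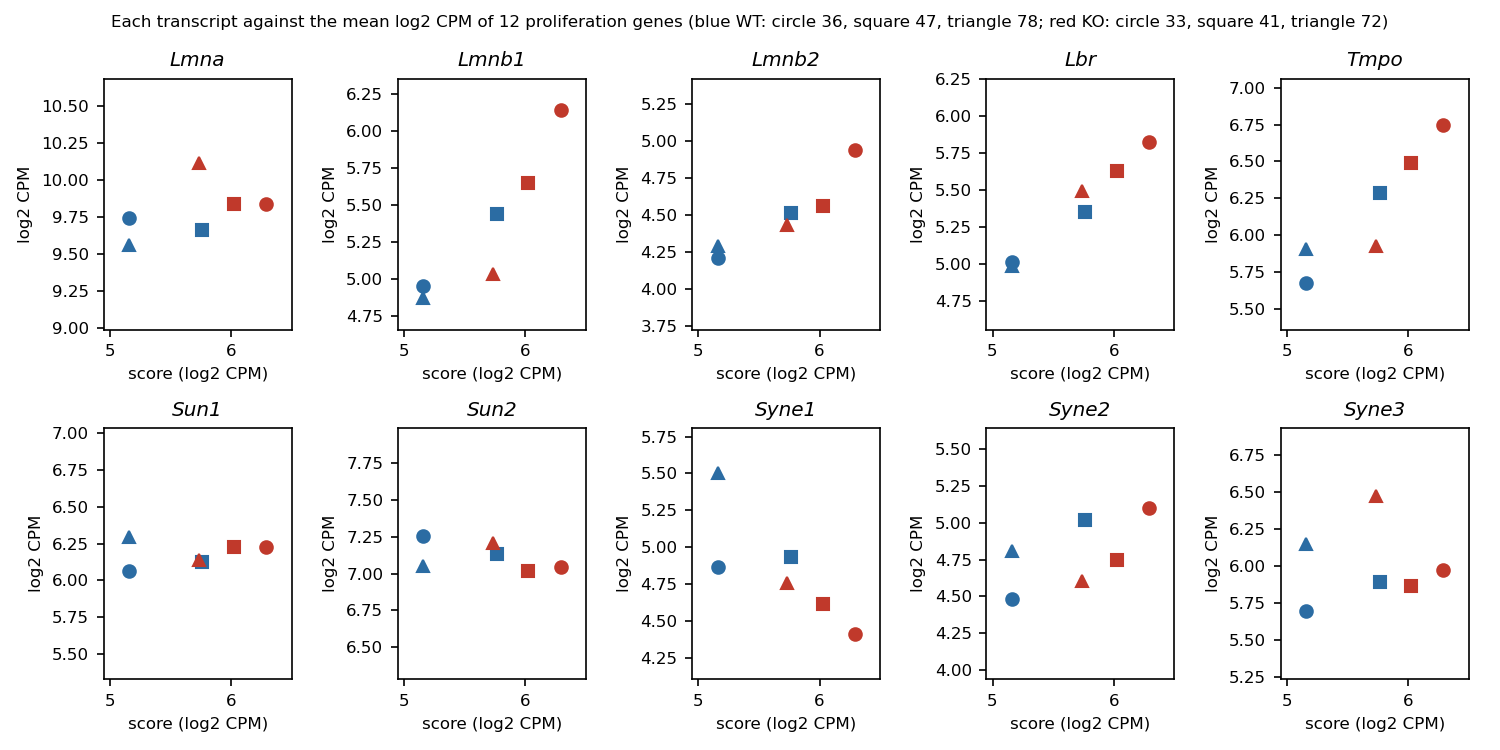
Log2 CPM of each of the 10 transcripts (y axis) against the mean log2 CPM of 12 proliferation genes (x axis) in 6 lines, with the same y span in every panel. With both genotypes pooled, points run upward for Lbr, Lmnb1, Lmnb2 and Tmpo (r between 0.92 and 0.99). They show little slope for Sun1 (r = 0.18) and Syne3 (r = 0.05). WT 36 and WT 78 have nearly the same score.

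Partners of the lamina were compared as lists. Of 12 inner membrane and LEM-domain partners (Emd, Lemd2, Lemd3, Ankle2, Banf1, Tor1a, Tor1b, Tor1aip1, Tor1aip2, Tmem43, Tmem201 and Nrm), all tested, 9 had positive and 3 negative log2 fold changes, with a median of 0.049 against 0.0085 for all genes. None passed the adjusted threshold, and 2 were higher (against 5.88% of all genes) and 1 lower (against 8.77%) at an unadjusted p under 0.05. Banf1, which bridges LEM proteins and DNA, was at 45.2 ± 3.54 CPM in HAT1 WT and 56.5 ± 3.41 CPM in HAT1 KO (log2 fold change 0.32 ± 0.08 SE, adjusted p = 0.187 in edgeR). Nrm, the gene of nurim, had a log2 fold change of 0.41 ± 0.15 (adjusted p = 0.288), and Tor1aip1, whose protein LAP1 activates torsins, had -0.15 ± 0.06 (adjusted p = 0.326) in edgeR.

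Lamins are farnesylated and trimmed after translation. Of 5 genes of that process (Zmpste24, Icmt, Rce1, Fnta and Fntb), 4 had positive log2 fold changes, with a median of 0.081, and Fntb, the farnesyltransferase beta subunit, was 1 of 5 at an unadjusted p under 0.05, against 5.88% of all genes (0.31 ± 0.11 SE, adjusted p = 0.280 in edgeR). Of 5 cytoskeletal partners of nesprins (Plec, Fhod1, Kif5b, Klc1 and Dync1h1), 2 had positive and 3 negative values, with a median of -0.025 and none under 0.05. Of 5 LINC genes typical of testis or epithelium (Sun3, Sun5, Spag4, Syne4 and Ccdc155), 3 were in the table. Spag4 was at 1.33 ± 0.162 CPM in HAT1 WT and 1.36 ± 0.243 CPM in HAT1 KO, while Syne4 and Ccdc155 had at most 14 counts in any library.

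Markers of other cell types were compared too, and the myeloid list alone had genes under the adjusted threshold. All 8 myeloid markers (Ptprc, Cd53, Csf1r, Adgre1, Itgam, Tyrobp, Laptm5 and Fcer1g) were lower in HAT1 KO, 7 of them at an adjusted p under 0.05 in edgeR (against 0.528% of all genes), and they summed to 1865 to 1961 CPM in HAT1 WT and 1016 to 1170 CPM in HAT1 KO. The smallest p of the list was that of Cd53, a leukocyte tetraspanin, which fell by 0.86 on the log2 scale (adjusted p = 0.0320 in edgeR), followed by Tyrobp and Itgam, which fell by 0.78 and 0.85. Of the endothelial markers (Pecam1, Cdh5, Kdr, Tek, Emcn and Tie1) 5 were in the table, summing to 11.4 to 12.6 CPM and 8.92 to 12.4 CPM, most of it from Kdr (9.49 ± 0.637 CPM in HAT1 WT and 8.48 ± 1.83 CPM in HAT1 KO). The defining Pecam1 (0.592 ± 0.0771 and 0.189 ± 0.0914 CPM) and Cdh5 (0.603 ± 0.121 and 0.333 ± 0.00663 CPM) were low in every line. Both were lower in HAT1 KO with no overlap, 2 of 4 tested markers against 12.4% of all genes. Their log2 fold changes were -1.63 (unadjusted p = 0.00690, adjusted p = 0.176) and -0.85 (unadjusted p = 0.0221, adjusted p = 0.260) in edgeR, where 8.77% of all genes were lower at an unadjusted p under 0.05. For Kdr and Tek, which overlapped, the edgeR values were -0.16 (adjusted p = 0.718) and 0.08 (adjusted p = 0.967). Skeletal muscle markers (Myod1, Myog, Myf5, Des, Acta1, Ckm, Tnnt3 and Myh3) were represented by 3 genes that summed to 26.3 to 62.2 CPM and 43.9 to 78.5 CPM. Epithelial markers (Epcam, Cdh1, Krt8, Krt18 and Krt5) summed to 1.75 to 2.20 CPM and 1.09 to 2.07 CPM. The 2 tested ones moved in opposite directions. Krt18 was at 1.14 ± 0.289 CPM in HAT1 WT and 0.253 ± 0.221 CPM in HAT1 KO, with no overlap (adjusted p = 0.407 in edgeR). That is 1 of 2 lower, against 12.4% of all genes. Cdh1 was at 0.551 ± 0.310 and 1.33 ± 0.713 CPM, with overlap (adjusted p = 0.376 in edgeR). The part of the myeloid markers, the proliferation genes, the lane and the Xist and Y-linked difference in the values of Lbr, Lmna and Syne1 was not tested beyond the models given here. Among the lines with high Xist and low Y-linked counts, WT 78 and the 3 KO lines, the log2 fold change was 0.69 for Lbr, 0.39 for Lmna and -0.89 for Syne1.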

How the data were processed

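RNA was extracted from 6 pMEF lines and sequenced from TruSeq RNA v2 libraries. The authors deposited 1 table of raw counts, in which each library has a column and no value is normalized. This deposited table also holds the authors' own comparison (logFC, logCPM, F, PValue and a q-value), which was not used. The submitters' processing notes name the mm10 build and edgeR, and the aligner, the counter and the use of strand are not given in the sources used here.

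Groups were taken from the genotype labels, and each line was 1 replicate. The main test was that of edgeR 4.0.16 (run in R 4.3.3), using filterByExpr (14773 of 17512 genes kept), TMM scaling, glmQLFit and glmQLFTest with genotype alone, two-sided, with Benjamini-Hochberg adjustment over all tested genes. Approximate standard errors come from the F statistic. Single values were compared with exact two-sided permutation tests. Correlations used 720 pairings of the lines, and were adjusted over all tested genes, with 0.5 counts added, in place of the planned adjustment over the 10 genes. Alternatives used DESeq2 1.42.0, limma 3.58.1 (voom with sample quality weights), other scalings and filters, lane or proliferation score in the model, and each line left out. The fit was tested on simulated counts.

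Positions are those of GENCODE M21 on GRCm38, and promoter windows those of RefSeq on GRCm38.p6. The promoter of Lmnb1 and protein sequences were not used here. The members and the comparison lists were chosen with earlier results of these data known. Named genes were the 10 members, Hat1, up to 3 genes of each list in each direction with an unadjusted p under 0.05, and the extremes of a list whose level is described. Total counts of 67720628 to 98786746 per library leave a counting error of at most 2.67% for the 10 genes, if each count is an independent fragment. This covers counting error only.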

Additional observations from a re-analysis of the deposited data

How the results depend on the processing

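With 3 lines against 3, the spread between lines limits what can be called, and no setting of edgeR or voom brought any of the 10 genes under an adjusted p of 0.05. The DESeq2 Wald test called 1, Lbr (adjusted p = 0.0180), with 869 genes called in all, against 78 in edgeR. Over all genes edgeR called 58 with DESeq2 size factors, 91 with library size alone, 46 without a filter, 90 at a mean of at least 50 counts, 2 with lane in the model and 0 with the proliferation score in the model, and voom called 267. Lbr, Lmna and Syne1 kept their sign in all 15 alternatives, with log2 fold changes of 0.15 to 0.69, 0.19 to 0.40 and -0.89 to -0.18.

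Signs turned with lane in the model for Syne2 (-0.11), with the proliferation score in the model for Lmnb1 (-0.33), Lmnb2 (-0.10), Tmpo (-0.27), Sun2 (0.033) and Syne2 (-0.42), and among the lines with high Xist and low Y-linked counts for Sun1 (-0.086), Sun2 (0.056) and Syne3 (-0.0075). Leaving out each line gave -0.012 to 0.11 for Sun1, -0.11 to 0.0021 for Sun2 and -0.11 to 0.19 for Syne2. The number of the 10 genes with a positive value was 5 with the score in the model.

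The number higher at an unadjusted p under 0.05 was 1 with lane, 0 with the score and 1 to 4 without each line in turn. At a p under 0.01 it was 1. The 4 without KO 72 added Lmnb1, Lmnb2 and Tmpo to Lbr and lost Lmna. The number lower was 0 with the score, 0 at a p under 0.01 and 0 to 1 without each line. Shares of all tested genes at an unadjusted p were not computed for these settings, so these counts lack a background. At an adjusted p under 0.05 in edgeR, 73 of all tested genes passed without KO 72, against 0 to 6 without any other line. Without each line in turn, 2 to 5 genes were higher and 1 to 2 lower with no overlap, the 5 without WT 47 (14.2% of all tested genes) or KO 72 (18.4%) and the 2 without KO 72 (19.7%). Ratios turned within lane 6 for Lbr to Lmna (-0.0017), Lmnb1 to Lmna (-0.16) and Lmnb1 to Lmnb2 (-0.024) and within lane 7 for Sun1 to Sun2 (-0.036). Leaving out each line gave -0.063 to 0.63 for Lmnb1 to Lmna, lowest without KO 33, and -0.011 to 0.21 for Sun1 to Sun2. Under library size alone, an alternative chosen after seeing the data, the correlation of Syne1 with the score was -0.80 and no longer under a p of 0.05. The cause of these differences was not tested. No paired analysis was possible because the genotypes share no replicate numbers, and the lane they do share in part was used only as given above.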

Other observations

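WT line 47 and KO line 72 were sequenced in the same lane and had nearly equal proliferation scores, 5.76 and 5.73. This pair was chosen after the values were seen, has 1 line of each genotype and allows no test. The log2 difference, KO 72 minus WT 47, was 0.45 for Lmna, 0.14 for Lbr and 0.58 for Syne3. It was -0.40 for Lmnb1, -0.08 for Lmnb2 and -0.36 for Tmpo, so the 4 transcripts with the highest r with the score, Lbr among them, did not share a sign. The SUN genes differed by 0.01 (Sun1) and 0.07 (Sun2), and the giant nesprins by -0.18 (Syne1) and -0.41 (Syne2).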
